A study of Rattus norvegicus with 6 samples.

Results

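The genes described here are 41 genes of the lysosome and of autophagy, in the pancreas of rats with and without acute pancreatitis (AP). They were chosen by name: a probe belongs to a gene where its RefSeq accession maps to that symbol in a table of current rat RefSeq genes. By that rule 38 of the 41 genes had a probe, of 13879 genes named on the array. Ctsz, Lamp1 and Npc1 had no matching probe. Of the 38, 37 passed the filter on dim probes and were tested; Glb1 did not pass. The 41 genes fall into 8 cathepsins, 10 other lysosomal hydrolases and their cofactors, 10 lysosomal membrane proteins and proton pump subunits, and 13 autophagy genes.

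The study measured pancreas RNA of male rats of 6 weeks on 1-colour Agilent arrays, with 3 deposited scans labelled control and 3 labelled AP. In the AP group, sodium taurocholate, a bile salt, was given backwards into the pancreatic duct as a 4% solution at 1 mL/kg, and the animals were killed 9 h later. The labels give the control rats no treatment of their own and do not mention a sham operation; strain and pooling of animals are not given in the sources used here. Scans 2 and 3 of each group came from the same array (spot deviations correlated with r = 0.992 in the control pair and 0.993 in the AP pair), so every test compared 2 arrays with 2, and a p-value measures the spread between these arrays. Bulk tissue was measured, so fewer cells of a type and less RNA per cell cannot be told apart. The direction of every comparison follows the deposited labels. Neutrophils are known to enter the pancreas in acute pancreatitis. On the arrays labelled AP their markers were lower in 4 of 7 cases and higher in 2 (Fcgr3a and Ncf1). Signals summed over 8 markers were 22.8 to 24.8 on control and 1.81 to 2.83 on AP arrays. Most of the control sum came from S100a8 and Lcn2, at mean log2 signals of 4.00 and 2.62 on control and -3.26 and -1.22 on AP arrays. The sum therefore does not measure neutrophil number. Whether the labels were exchanged was not tested, and an exchange would turn every direction given here.

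Lysosomes are acidic organelles in which hydrolases break down proteins, lipids and sugars, and a membrane-bound proton pump keeps them acidic. Autophagy wraps parts of the cytoplasm in a double membrane and delivers them to the lysosome. In the acinar cells of the pancreas, cathepsin B can activate trypsinogen and cathepsin L can degrade it, and the handling of these enzymes in lysosomes and autophagic vacuoles is a long-studied part of pancreatitis. TFEB is a transcription factor that drives many lysosomal and autophagy genes through a DNA element with the core CACGTG.

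Most of the measured genes that changed were lower on the arrays labelled AP. Signals are log2 values relative to the 75th percentile of the array, and a gene changed where limma gave an adjusted p below 0.05 (Benjamini-Hochberg over 13220 probes). Of the 37 genes tested, 17 were lower, 4 were higher and 16 were not past the threshold. The arrays differed widely as a whole: of 8726 genes tested, 31.9% were lower, 24.1% were higher and 56.0% passed the threshold in either direction. The members that passed were therefore near the background in number (21 of 37) but leaned more to lower signals, with a median log2 fold change of -0.45 beside -0.03 over all genes tested. All 10 members that passed with a change of at least 1 on the log2 scale fell; among all genes tested, 1671 falls and 1060 rises passed at that size.

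The split between falls and rises differed with the scaling and with the background correction. Before scaling, the AP arrays were dimmer by 0.96 in log2, and without scaling the median over all genes tested was -0.99. Without scaling, 32 members were lower and none higher (limma, adjusted p; also none at an unadjusted p below 0.05), and all 37 fold changes lay below 0. With the median in place of the 75th percentile the split was 12 lower to 0 higher (limma; 1 higher at an unadjusted p below 0.05). It was 13 lower to 0 higher with normexp background correction and the 75th percentile shift (limma, 0 higher at an unadjusted p below 0.05). With normexp and quantile normalization it was 18 lower to 3 higher (limma, 5 higher at an unadjusted p below 0.05). Quantile normalization gave 15 lower and 4 higher. A rise below 0.96 therefore has the opposite sign without scaling, and this holds for all 4 genes called higher. The 9 genes named in the next sentence were called lower in each of the 19 other settings tried. They are Ctsd, Ctsl, Lgmn, Npc2, Cd63, Scarb2, Atp6v1b2, Map1lc3a and Vmp1.

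**Figure D1:**
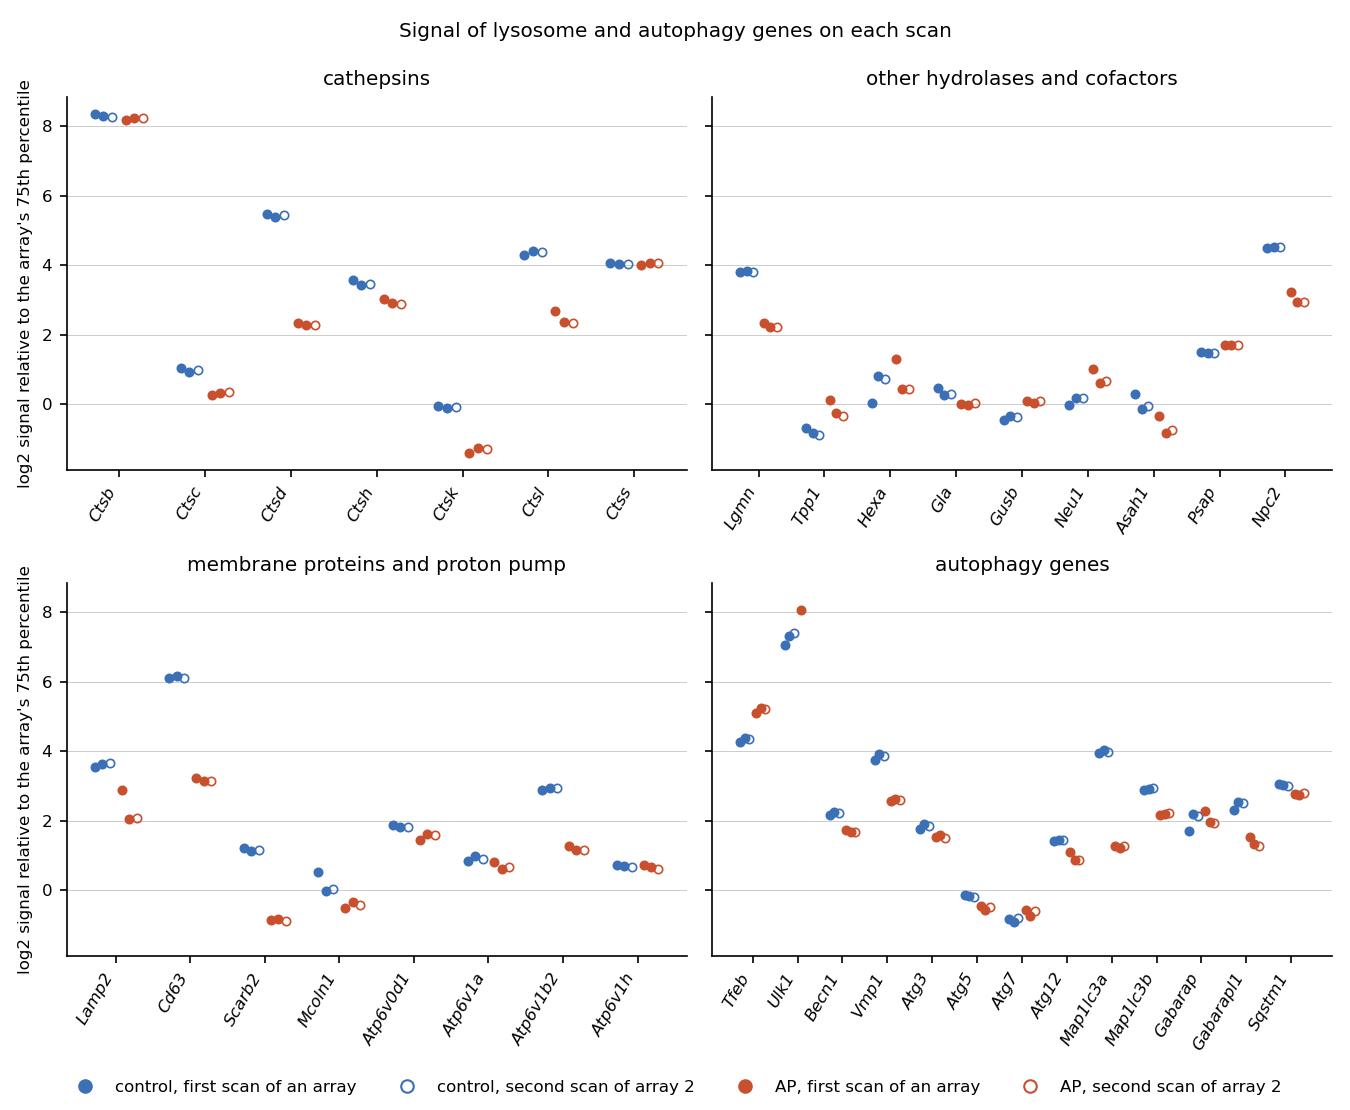
Log2 signal relative to the array's 75th percentile (vertical axis) of each of the 37 tested genes on the 6 scans, in 4 panels by group. Filled points are the first scan of each array and open points the second scan of array 2; Ctsd stood between 5.39 and 5.47 on control scans and between 2.26 and 2.33 on AP scans.

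Cathepsins, the main proteases of the lysosome, included the member with the largest fall, Ctsd. Of 7 measured, 5 were lower (Ctsd, Ctsl, Ctsk, Ctsc and Ctsh) and 2 were not past the threshold (Ctsb and Ctss), with a median log2 fold change of -0.70. Ctsd encodes cathepsin D, an aspartic protease. On control scans 1, 2 and 3 its signal was 5.47, 5.39 and 5.45, and on AP scans 1, 2 and 3 it was 2.33, 2.27 and 2.26. All AP scans lay far below all control scans. The signal was lower by 8.87-fold, a log2 fold change of -3.15 ± 0.10 (SE, n = 2 per group, limma adjusted p = 0.000689). This placed it at the 2.93 percentile of fold changes among all genes tested.

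Ctsl, the cysteine protease cathepsin L, gave 4.29, 4.4 and 4.38 on control scans and 2.66, 2.36 and 2.34 on AP scans. It was 3.57-fold lower (-1.83 ± 0.15, SE, n = 2 per group, limma adjusted p = 0.00290), and the AP arrays differed from each other more than the control arrays did. Ctsk, a collagen-degrading cathepsin known from osteoclasts, stood at -0.06, -0.12 and -0.08 on control scans and at -1.41, -1.28 and -1.28 on AP scans. The groups did not overlap, as for 33 of the 37 members. With 2 arrays per group, and the share over all genes not computed, a lack of overlap by itself supports no call here. Ctsk was 2.40-fold lower (-1.27 ± 0.10, limma adjusted p = 0.00282). It lost its call with normexp background correction and the 75th percentile shift (-0.34, adjusted p = 0.347).

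Ctsb, the cathepsin that can activate trypsinogen, was not past the threshold. Its signal was 8.35, 8.29 and 8.26 on control scans and 8.17, 8.25 and 8.23 on AP scans. The groups lay close together, with all control scans above all AP scans (log2 fold change -0.11 ± 0.10, SE, n = 2 per group, limma adjusted p = 0.388). Its call depended on the scaling: Ctsb was called lower under quantile normalization (-0.87, adjusted p = 0.00793), with normexp and quantile normalization (-0.81, 0.00226), with the deposited normalized values (-0.87, 0.00669) and without scaling (-1.07, 0.00237). Ctss, a cathepsin of antigen-presenting cells, stood at 4.04 in both groups (0.0030 ± 0.09, adjusted p = 0.981), and was lower without scaling (-0.95, 0.00294).

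Ctsc, which activates the serine proteases of granulocytes, was 1.62-fold lower (-0.70 ± 0.10, SE, n = 2 per group, limma adjusted p = 0.00908), and its adjusted p was 0.0501 without control replicate 1. Ctsc also lost its call with the median shift and with normexp and the 75th percentile shift. Ctsh, an aminopeptidase, was 1.48-fold lower (-0.56 ± 0.11, adjusted p = 0.0214). It lost its call whichever array was left out (adjusted p 0.0577 to 0.0870).

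The other lysosomal hydrolases and their cofactors did not share 1 direction. Of 9 measured, 2 were lower (Lgmn and Npc2), 3 were higher (Gusb, Neu1 and Tpp1) and 4 were not past the threshold (Asah1, Gla, Hexa and Psap), with a median of 0.22, or -0.74 without scaling. Lgmn encodes legumain, an asparaginyl endopeptidase that processes cathepsins. Its signal was 3.80, 3.82 and 3.79 on control scans and 2.34, 2.22 and 2.22 on AP scans, without overlap. Lgmn was 2.88-fold lower (-1.52 ± 0.10, SE, n = 2 per group, limma adjusted p = 0.00194). Npc2, a soluble protein that carries cholesterol out of the lysosome, gave 4.50, 4.51 and 4.52 on control scans and 3.23, 2.92 and 2.95 on AP scans. It was 2.69-fold lower (-1.43 ± 0.14, adjusted p = 0.00415), again with no overlap.

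The rises in this group were small. Neu1, the lysosomal sialidase, went from a mean of 0.08 to 0.82 (0.75 ± 0.18, SE, n = 2 per group, limma adjusted p = 0.0338). Tpp1, a tripeptidyl peptidase, went from -0.78 to -0.09 (0.69 ± 0.19, adjusted p = 0.0489). Both lost their call without control replicate 1, control replicate 2 or AP replicate 1. Each such fit leaves 1 array in a group, so a lost call may reflect the smaller fit and not the gene. Gusb, the enzyme beta-glucuronidase, had 2 probes of 1 accession that moved alike, by 0.49 ± 0.10 (adjusted p = 0.0222) and 0.54 ± 0.09 (0.0136). For Gusb the call was lost whichever array was left out (0.0684 to 0.0879). Without scaling Neu1, Tpp1 and Gusb stood at -0.21, -0.27 and -0.47, and Gusb was then called lower (0.0310).

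The 4 enzymes and activators not past the threshold ranged from -0.66 to 0.49. Asah1, the acid ceramidase, stood at -0.66 ± 0.24 (SE, n = 2 per group, limma adjusted p = 0.0860), and Gla, alpha-galactosidase A, at -0.38 ± 0.12 (0.0601). Psap, the precursor of the saposin activator proteins, stood at 0.22 ± 0.09 (0.117). Hexa, a subunit of hexosaminidase, had the widest spread between arrays of a group among the tested members: its scans were at 0.01, 0.80 and 0.72 in the control group and at 1.31, 0.44 and 0.44 in the AP group, so the groups overlapped (0.49 ± 0.43, adjusted p = 0.392). Glb1, beta-galactosidase, was well above background on 2 of 3 control scans, both of array 2 (-2.69 and -2.86), and on none of the AP scans, and no fold is given for it.

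**Figure D2:**
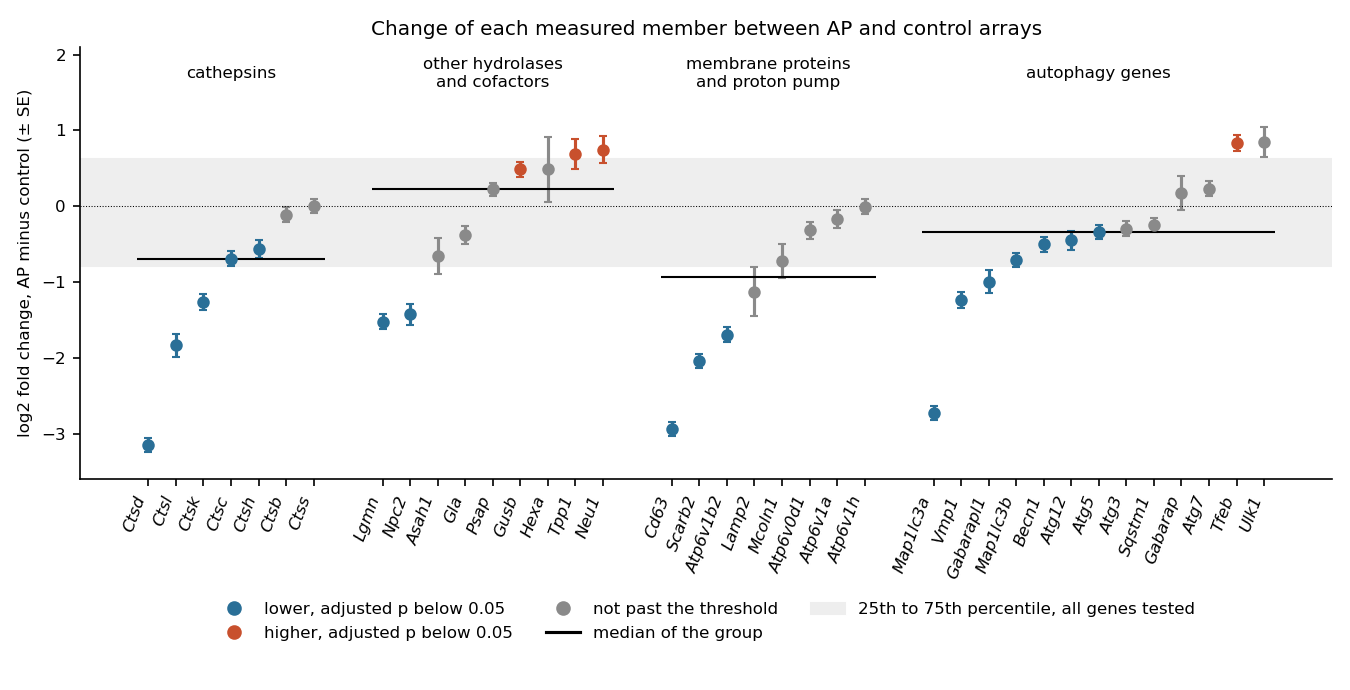
Log2 fold change (AP minus control, vertical axis) with its SE for the 37 tested genes, ordered by value within the 4 groups; black lines are group medians and the grey band spans -0.79 to 0.62, the 25th to 75th percentile of all genes tested. Points below the band are Ctsd, Ctsl, Ctsk, Lgmn, Npc2, Cd63, Scarb2, Atp6v1b2, Lamp2, Map1lc3a, Vmp1 and Gabarapl1; Lamp2 did not pass the test.

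Log2 fold changes of all 8 measured lysosomal membrane proteins and pump subunits lay below 0, as did those of 4473 of all 8726 genes tested. Under quantile normalization and with the deposited values Atp6v1h lay above 0. Of 8 genes measured in this group, 3 were lower (Cd63, Scarb2 and Atp6v1b2) and 5 were not past the threshold. The share that was lower, 37.5%, was near the 31.9% among all genes tested. The median log2 fold change was -0.93, with -1.59 for the 4 membrane proteins and -0.24 for the 4 pump subunits; that difference was not tested. Cd63, a tetraspanin of late endosomes, lysosomes and secretory granules, gave 6.12, 6.17 and 6.12 on control scans and 3.24, 3.15 and 3.15 on AP scans. The gap between the groups was far wider than the gap between arrays of a group. Cd63 was 7.67-fold lower (-2.94 ± 0.10, SE, n = 2 per group, limma adjusted p = 0.000712).

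Scarb2, which encodes LIMP-2, the receptor that brings beta-glucocerebrosidase to the lysosome, stood at 1.22, 1.14 and 1.15 on control scans and at -0.86, -0.84 and -0.88 on AP scans. It was 4.12-fold lower without overlap (-2.04 ± 0.09, SE, n = 2 per group, limma adjusted p = 0.00103); with normexp and the 75th percentile shift its log2 fold change was -1.0 (0.00448). Lamp2, a main glycoprotein of the lysosomal membrane, was at 3.56, 3.63 and 3.67 on control scans and at 2.90, 2.04 and 2.07 on AP scans. All AP scans were lower, but the AP arrays lay apart from each other, and Lamp2 just missed the threshold (-1.13 ± 0.32, adjusted p = 0.0512). Lamp2 stood at -1.55 without AP replicate 1 and at -0.71 without AP replicate 2. Each of these fits holds 1 AP array and takes the spread from the control pair, so neither supports a call. Of the 19 other settings, 10 called Lamp2 lower, these fits included, and 9 did not. Mcoln1, the calcium channel mucolipin 1, stood at -0.73 ± 0.22 (0.0597). Without control replicate 2 it stood at -0.99 (0.0375), with the spread taken from the AP pair alone, which supports no call either.

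The 4 pump subunits differed among themselves. Atp6v1b2, a B subunit of the ATP-hydrolysing part, was at 2.87, 2.94 and 2.95 on control scans and at 1.27, 1.17 and 1.16 on AP scans. It was 3.24-fold lower, with no overlap between groups (-1.69 ± 0.10, SE, n = 2 per group, limma adjusted p = 0.00162). Its partners in the same part, Atp6v1a and Atp6v1h, stood at -0.16 ± 0.12 (0.307) and -0.0065 ± 0.10 (0.958). Atp6v0d1, of the membrane part, stood at -0.32 ± 0.11 (0.0745).

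Autophagy genes were lower in 7 of 13 cases, beside 31.9% of all genes tested, and the transcription factor Tfeb was higher. The other 5 were not past the threshold, and the median was -0.34. Of the 7, Becn1, Atg5 and Atg12 lost their calls whichever array was left out. Tfeb gave 4.28, 4.38 and 4.37 on control scans and 5.09, 5.24 and 5.22 on AP scans. All AP scans were above all control scans, and Tfeb was 1.78-fold higher (0.83 ± 0.11, SE, n = 2 per group, limma adjusted p = 0.00751). It stood at -0.12 without scaling (0.369), at 0.35 with normexp and the 75th percentile shift (0.369) and at 0.77 with the median shift (0.0954), none of them past the threshold.

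Map1lc3a and Map1lc3b encode LC3 proteins, which are coupled to lipid on the autophagosome membrane. Map1lc3a was at 3.95, 4.04 and 3.99 on control scans and at 1.27, 1.21 and 1.28 on AP scans. It was 6.62-fold lower (-2.73 ± 0.09, SE, n = 2 per group, limma adjusted p = 0.000726), and the scans of each group lay within a narrow range. Map1lc3b gave 2.88, 2.92 and 2.93 on control scans and 2.17, 2.21 and 2.23 on AP scans. It was 1.63-fold lower without overlap (-0.71 ± 0.09, adjusted p = 0.00768), and was not past the threshold with the median shift (-0.78, 0.0898).

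The GABARAP proteins are relatives of LC3 and act later in the making of autophagosomes. Gabarapl1 was 2.00-fold lower (-0.997 ± 0.15, SE, n = 2 per group, limma adjusted p = 0.0109), with an adjusted p of 0.0587 without control replicate 2. Gabarap stood at 0.18 ± 0.22 (0.546), with overlapping groups. Probe sequences were not used here, so cross-hybridisation among these 4 related genes was not tested.

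Vmp1 encodes a membrane protein of the endoplasmic reticulum needed to form autophagosomes, and its expression in acinar cells is known to be induced by pancreatitis. On these arrays it gave 3.76, 3.92 and 3.87 on control scans and 2.58, 2.62 and 2.59 on AP scans. Vmp1 was thus lower on the scans labelled AP, by 2.35-fold (-1.23 ± 0.10, SE, n = 2 per group, limma adjusted p = 0.00311). Sqstm1 encodes p62, a receptor that links ubiquitinated cargo to LC3. Its brighter probe was at 3.05, 3.02 and 2.99 on control scans and at 2.78, 2.75 and 2.79 on AP scans. The groups did not overlap, but the difference was not past the threshold (-0.25 ± 0.09, adjusted p = 0.0881). The second Sqstm1 probe, of another accession, was called lower (-0.49 ± 0.11, adjusted p = 0.0269).

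Among genes of initiation and of the conjugation machinery, 3 were lower and 3 were not past the threshold. Becn1, a subunit of the lipid kinase complex that starts the membrane, had 2 probes of different accessions that were both lower, by -0.50 ± 0.09 (SE, n = 2 per group, limma adjusted p = 0.0180) and -0.52 ± 0.11 (0.0229). Atg12 (-0.45 ± 0.12, 0.0424) and Atg5 (-0.34 ± 0.09, 0.0475), which are joined into the conjugate that directs lipid coupling of LC3, were lower. With 1 array left out the adjusted p was 0.0603 to 0.0837 for Becn1, 0.106 to 0.155 for Atg5 and 0.0542 to 0.152 for Atg12. Becn1 and Atg12 also lost their calls under quantile normalization (0.0584 and 0.0914) and with the deposited values (0.0548 and 0.0928). The enzymes Atg3 and Atg7, which couple LC3 to lipid, stood at -0.29 ± 0.10 (0.0728) and 0.23 ± 0.10 (0.123). Ulk1, the kinase that starts autophagy, had a marked spot on the second AP array. Its value of 0.85 ± 0.20 therefore rests on 1 AP array against 2 control arrays, and the fit took its spread from the control group. Its size differed with the processing. Ulk1 stood at 0.82 with the median shift and at 0.26 under quantile normalization. It stood at 0.15 with the deposited values and at 0.07 with normexp and the 75th percentile shift.

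**Figure D3:**
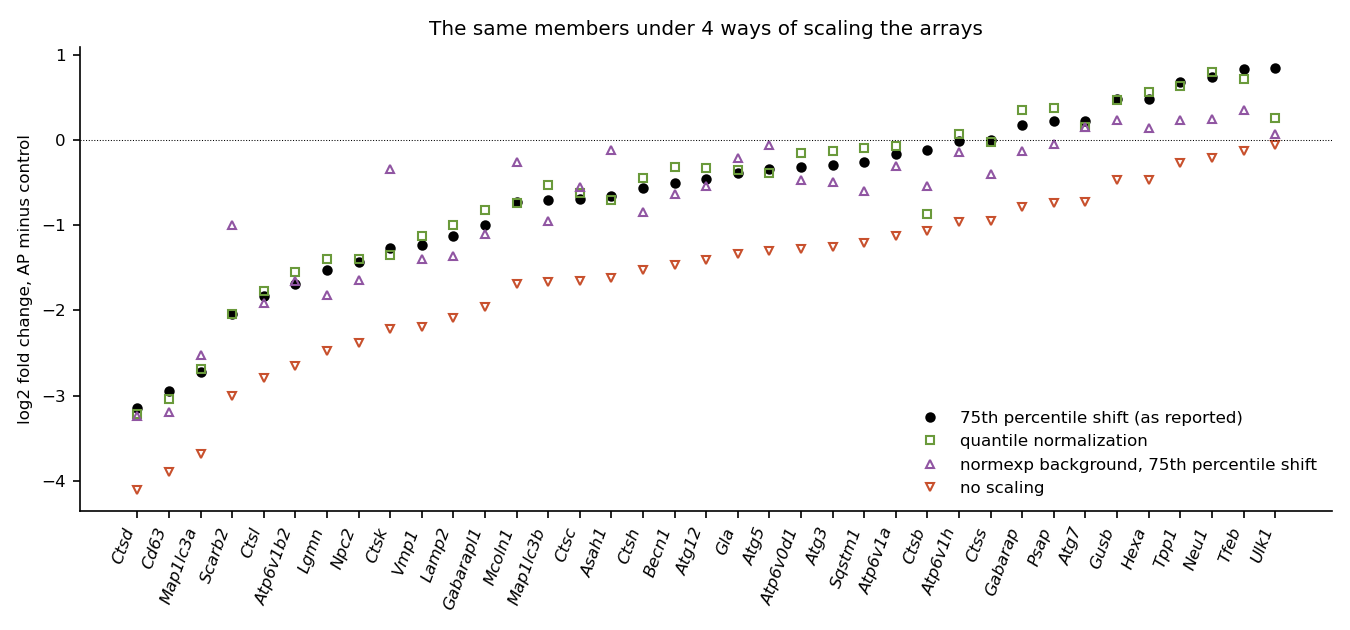
Log2 fold change (AP minus control, vertical axis) of the 37 tested genes under 4 ways of scaling, ordered by the reported value. Without scaling all points lie below 0, from -4.11 for Ctsd to -0.06 for Ulk1, while Ctsd, Cd63 and Map1lc3a stay lowest in all 4 and Ctsb moves from -0.11 to -0.87 under quantile normalization.

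Promoter windows of 300 bases (250 before to 50 after the gene start; RefSeq, build GRCr8) were read for 33 of the 41 genes; the table held no entry for Asah1, Atp6v1b2, Atp6v1h, Becn1, Ctsb, Hexa, Map1lc3a and Psap. The letters CACGTG, which read the same on both strands, were found in 8 of the 33 windows (24.2%), against 6.42% of 33469 windows of all genes, noncoding ones included. The longer run TCACGTGA, which contains CACGTG and also reads the same on both strands, was in 5 of 33 (15.2%), against 0.777%. By group, 4 of 8 windows of membrane and pump genes, 2 of 11 of autophagy genes, 1 of 7 of cathepsins and 1 of 7 of the other hydrolases held CACGTG. Among genes with a test and a window, it was in 3 of 14 that were lower (Ctsd, Cd63 and Atg5) in 3 of 11 not past the threshold (Mcoln1, Atp6v0d1 and Atg3) and in 0 of 4 that were higher. The 4 windows printed next put the largest falls beside genes that did not pass, with CACGTG in capitals, each 5′ to 3′ on the gene's strand. Ctsd lies on the minus strand at chr1:206968772-206969071, with motifs starting 157 and 10 bases before the gene start. Cd63 lies on the plus strand at chr7:1921894-1922193, with 1 motif 190 bases before it. Mcoln1 is on the plus strand at chr12:6358008-6358307, with a motif 22 bases before and another 4 bases after the start, and Atp6v0d1 is on the minus strand at chr19:50357199-50357498, with 1 motif 52 bases before it.
Ctsd: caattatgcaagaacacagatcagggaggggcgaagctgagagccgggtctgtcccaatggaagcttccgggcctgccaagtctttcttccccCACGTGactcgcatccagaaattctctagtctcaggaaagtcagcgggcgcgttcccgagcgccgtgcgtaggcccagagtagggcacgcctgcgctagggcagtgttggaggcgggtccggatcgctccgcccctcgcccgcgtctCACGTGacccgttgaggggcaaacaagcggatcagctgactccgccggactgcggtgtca
Cd63: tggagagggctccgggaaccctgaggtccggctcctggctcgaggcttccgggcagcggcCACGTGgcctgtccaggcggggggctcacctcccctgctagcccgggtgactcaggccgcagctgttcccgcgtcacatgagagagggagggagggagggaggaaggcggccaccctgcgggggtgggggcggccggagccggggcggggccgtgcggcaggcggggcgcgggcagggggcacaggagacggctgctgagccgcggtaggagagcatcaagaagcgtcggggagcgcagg
Mcoln1: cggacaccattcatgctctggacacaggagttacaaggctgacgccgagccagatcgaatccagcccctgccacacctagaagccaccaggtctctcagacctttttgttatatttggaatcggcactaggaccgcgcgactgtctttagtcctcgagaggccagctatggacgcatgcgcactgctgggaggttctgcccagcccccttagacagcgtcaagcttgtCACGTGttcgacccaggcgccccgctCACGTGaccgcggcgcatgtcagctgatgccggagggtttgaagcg
Atp6v0d1: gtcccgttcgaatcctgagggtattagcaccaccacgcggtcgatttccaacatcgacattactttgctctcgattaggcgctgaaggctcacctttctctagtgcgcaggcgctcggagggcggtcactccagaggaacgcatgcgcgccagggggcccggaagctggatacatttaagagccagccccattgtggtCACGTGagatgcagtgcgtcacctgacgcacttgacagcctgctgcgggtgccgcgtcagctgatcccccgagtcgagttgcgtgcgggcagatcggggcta
Windows with these letters thus belonged both to genes that fell by about 3 on the log2 scale and to genes that did not pass the test. A match is a run of letters and does not show that a factor binds there.

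Further genes of the same pathway, from 6 lists that do not repeat the members, moved in both directions. Over all genes tested, 31.9% were lower and 24.1% higher. Further hydrolases and cofactors (34.8% lower, 21.7% higher), membrane proteins and sorting receptors (33.3%, 19.0%) and autophagy machinery (31.6%, 21.1%) lay near these shares. Pump subunits had 35.7% each way, and autophagy receptors 55.6% lower and 11.1% higher. Without scaling the median of each of the 6 lists lay below 0, from -1.53 to -0.80. Of 23 further hydrolases and cofactors tested, 5 were higher, 8 were lower and 10 were not past the threshold (median -0.15). Ctse, an aspartic protease of endosomes, was higher by 5.05 ± 0.10 on the log2 scale (SE, n = 2 per group, limma adjusted p = 0.000603). Its signal was well above background on only 1 of 3 control scans, so the size of this rise is uncertain. Manba, beta-mannosidase, was higher by 0.86 ± 0.10 (0.00541), with -0.10 without scaling. Pla2g15, a lysosomal phospholipase, was not well above background on any AP scan and was at least 3.95-fold lower (0.00134), and Smpd1, acid sphingomyelinase, was 2.05-fold lower (0.00437). Such bounds are taken against the lowest signal well above background on each AP array, or the probe's own signal where that is higher.

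Among 21 further membrane proteins and sorting receptors, 4 were higher, 7 were lower and 10 were not past the threshold (median 0.14). Sort1, the sorting receptor sortilin, was at least 4.41-fold lower and not well above background on any AP scan (limma adjusted p = 0.00205, n = 2 per group). Litaf, a late endosome protein induced by lipopolysaccharide, was 5.29-fold lower (0.000866). Clcn7, the chloride-proton exchanger of the lysosome, and Mcoln3, a relative of Mcoln1, were higher by 1.14 ± 0.23 (SE, 0.0203) and 0.77 ± 0.17 (0.0250).

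Further pump subunits were split evenly, with 5 of 14 higher, 5 lower and 4 not past the threshold (median 0.15). Atp6v0a1 and Atp6v0e1, of the membrane part, were 4.15-fold and 2.65-fold lower (limma adjusted p = 0.00120 and 0.00239, n = 2 per group). Atp6v0d2, a second form of the d subunit, and Atp6v1g2 were higher by 1.21 ± 0.22 (SE, 0.0169) and 0.98 ± 0.13 (0.00837). Without scaling these rises were 0.25 and 0.02.

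Of 19 further genes of the autophagy machinery, 4 were higher, 6 were lower and 9 were not past the threshold (median -0.15). Wipi2 and Wipi1, which bind the phosphoinositide made at the forming membrane, were 2.80-fold and 2.5-fold lower (limma adjusted p = 0.00330 and 0.00410, n = 2 per group). The SNARE genes Vamp8 and Snap29, which act in fusion of autophagosomes with lysosomes, were higher by 1.08 ± 0.17 (SE, 0.0123) and 1.07 ± 0.12 (0.00569), or by 0.13 and 0.11 without scaling. Autophagy receptors were lower in 5 of 9 cases, with 1 higher and 3 not past the threshold (median -0.57). Bnip3, a mitophagy receptor induced by hypoxia, was 4.81-fold lower (0.00150), Optn at least 1.84-fold lower (0.0150), with no AP scan well above background, and Calcoco1 was higher by 0.52 ± 0.09 (0.0161).

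Regulators of TFEB and of mTORC1, the kinase complex that holds TFEB in the cytoplasm, were lower in 6 of 15 cases (40%). Over all genes tested 31.9% were lower, so the count was near that share. The other 9 regulators were not past the threshold (median -0.47). Lamtor1, which anchors the complex to the lysosome, was 2.26-fold lower, and Rragc, one of its GTPases, 2.16-fold lower (limma adjusted p = 0.00264 and 0.00286, n = 2 per group).

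**Figure D4:**
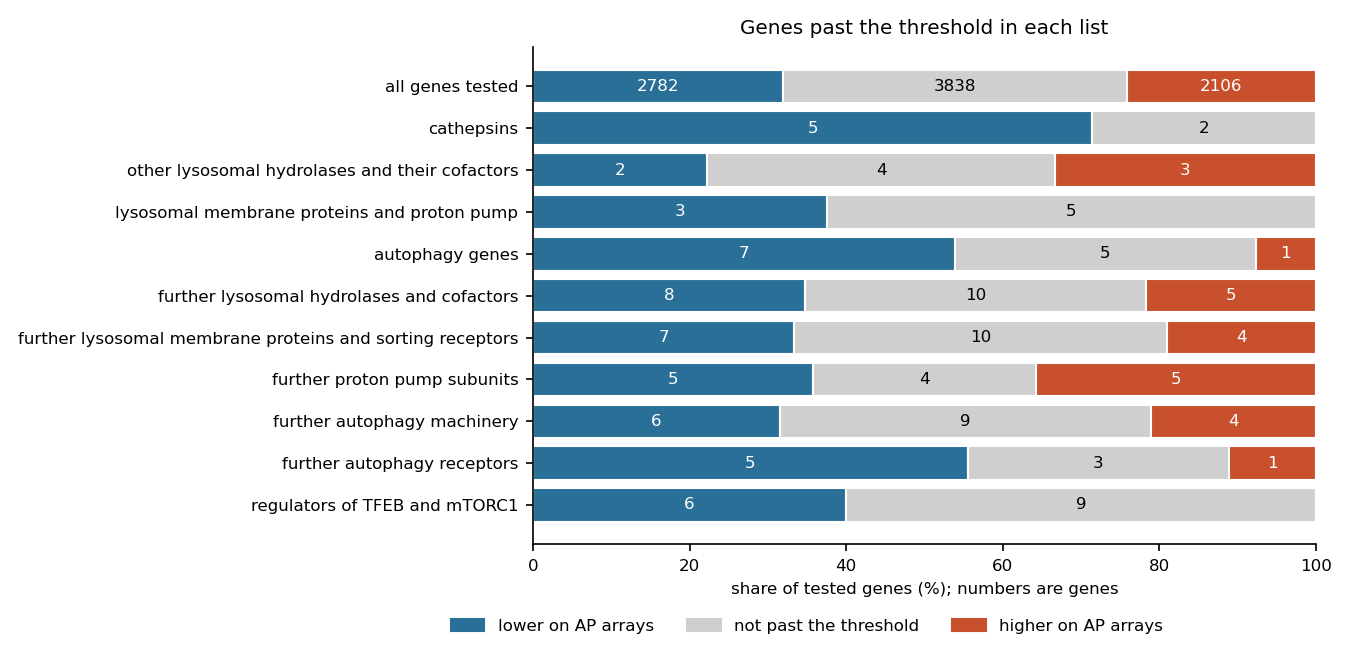
Share of tested genes (horizontal axis, percent) that were lower, not past the threshold or higher on AP arrays, for all genes tested, the 4 groups of members and 6 further lists; numbers in the bars are genes. The cathepsins have 5 of 7 genes lower, beside 2782 of 8726 genes overall.

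Markers of other cell types differed between the groups as well, and their part in the results above was not tested. Acinar enzymes, which mark the labelled tissue, were well above background on all arrays, while the acinar transcription factors Rbpjl and Ptf1a were at background on all scans. Mean log2 signals of the enzymes on control arrays ran from -0.87 (Cel) to 4.03 (Cela3b). On control arrays the summed acinar signal given next lay below the sums for adipocyte and erythroid markers. A signal above background does not measure how much acinar tissue was present, and the reason for these levels was not tested. Acinar markers were higher in 8 of 13 cases, though 8 of the 13 lay below 0 without scaling, and the summed signal of all 15 with a probe, in multiples of the 75th percentile, was 79.6 to 80.3 on control and 93.9 to 104 on AP arrays. Macrophage markers, cells rich in lysosomes, were higher in 2 of 12 cases, lower in 4 and not past the threshold in 6. Their sum over the 11 with a value on every array was 50.5 to 51.7 on control and 46.9 to 47.9 on AP arrays. Cd68 and Lyz2 lacked a value on at least 1 array and are not in that sum. The mean log2 signal of Cd68 was 3.265 on control and 4.381 on AP arrays, and that of Lyz2 was 7.439 and 6.285. Lyz2 was the brightest marker of the list, so the sum leaves out much of the signal. Cd163 was at background in both groups and Marco in the control group. Among the neutrophil markers, whose sums are given above, 2 of 7 were higher; S100a8, Csf3r, Camp and Ltf were at background on AP scans and Ltf on control scans.

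T and B lymphocyte markers were higher in 9 of 9 cases, with sums of 3.18 to 3.93 on control and 39.2 to 40.4 on AP arrays; Cd4 was at background on the scans of both groups. Adipocyte markers were lower in 6 of 8 cases (446.9 to 450.2 against 16.27 to 16.29), erythroid markers in 5 of 5 (636.5 to 735 against 28.8 to 29.6) and fibroblast markers in 7 of 9 (154.7 to 173 against 38.9 to 46.8, over 7 genes). Slc4a1 and Epb42 of the erythroid list were at background on AP scans. Duct markers were lower in 3 of 5 cases (Krt8, Krt19 and Car2) and higher in 1 (Slc4a4). Their sum was 21.1 to 21.6 on control and 24.4 to 30.4 on AP arrays. That rise came from Slc4a4, with mean log2 signals of 2.06 on control and 4.45 on AP arrays. Cftr was at background in both groups and Car2 on AP scans. Islet markers were lower in 2 of 4 cases (8.47 to 10.2 against 3.66 to 4.43), with Gcg and Chga at background in both groups and Ins2 and Iapp on AP scans. Endothelial markers were lower in 2 of 2 cases (2.48 to 2.74 against 1.54 to 1.57), with Cdh5 at background in both groups and Pecam1 on AP scans. The 75th percentile itself was a signal of 140 to 147 on control scans and 70.1 to 77.7 on AP scans.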

How the data were processed

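Total RNA was extracted from pancreas and ribosomal RNA removed, per the labels' protocols. Random-primed, Cy3-labelled RNA was hybridised to arrays designed on rn4 and read by Agilent Feature Extraction 11.0.1.1, per the file headers. The deposited intensity of a spot is background-subtracted and spatially detrended but not scaled between arrays, and other columns mark outlier spots and spots well above background, per the file headers. The deposited value table is in log2 with a median of 4.27 in every column; no source used here gives its scaling method, and its AP minus control differences correlated with those computed here with r = 0.988 across probes.

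Control and outlier-marked spots were left out, log2 intensities of a probe's spots averaged, and the 75th percentile of the array subtracted. Scans 2 and 3 of each group were averaged as 1 array. Probes that 3 or more of the 6 scans marked as well above background entered limma 3.58.1 in R 4.3.3 (two-sided). The procedure was tested on simulated data. A gene not past the threshold may still have changed. The brightest probe stood for a gene. Of 24663 probes, 14268 were named. All arrays shared 1 slide, with control arrays in slots 1 and 2 and AP arrays in slots 3 and 4, so place and group cannot be told apart. No spot was saturated. The number of arrays limits the precision. Leaving 1 array out leaves 1 array in a group, so calls lost or gained in such a fit may reflect its smaller size.

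Members, 6 further lists and 10 marker lists were chosen with earlier results of these data known. The level of 1 marker gene is not reported here. All members could be named; scan values were set to be given for members changed by at least 1 in log2 and for Ctsb, Ctsd, Ctsl, Lamp1 (no probe), Lamp2, Sqstm1, Map1lc3b, Tfeb and Vmp1, and of each further list up to 2 genes each way; those of Hexa and Glb1 were added after their values were seen. Alternatives numbered 19, 18 of them set out first and the crossed pairing added after seeing the data. Normexp used the median spot signal, since these tables hold no mean spot signal.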

Additional observations from a re-analysis of the deposited data

How the results depend on the processing

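With 1 array left out, the members numbered 12 to 14 lower and 1 to 3 higher, against 17 and 4; the medians ranged from -0.54 to -0.40 over all members, -0.45 to -0.31 for autophagy genes, -1.10 to -0.75 for membrane and pump genes, -0.74 to -0.65 for cathepsins and, for the other hydrolases, 0.055 (without AP replicate 1) to 0.22. Of the 21 called members, 12 kept their call without any 1 array and 9 lost it without at least 1. The count of higher members was 0 without scaling, with the median shift and with normexp and the 75th percentile shift (limma; 0, 1 and 0 at an unadjusted p below 0.05), 2 with no filter on dim probes, 1 with the replicate block, and 7 where the 6 scans counted as replicates, with or without a block for scan session. The count of lower members was 32 without scaling. Without scaling the medians were -1.41 (all members), -1.65 (cathepsins), -0.74 (other hydrolases), -1.88 (membrane and pump) and -1.30 (autophagy). With normexp and the 75th percentile shift they were -0.55 (cathepsins), -0.045 (other hydrolases), -0.73 (membrane and pump) and -0.54 (autophagy), and with normexp and quantile normalization -0.24 (all members), -0.53 (cathepsins), -0.61 (membrane and pump) and -0.15 (autophagy). The cathepsin median was -0.87 under quantile normalization and with the deposited values and -0.76 with the median shift. The autophagy median was -0.41 with the median shift and -0.40 where a probe had to be above background in every scan, and that of the other hydrolases 0.023 with no filter, where Glb1 entered. Probes called in all numbered 3557 higher and 3725 lower, but 768 and 7795 without scaling, 934 and 1721 with normexp and the 75th percentile shift, and 6800 and 3362 with no filter. The cause of these differences was not tested.

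Signs turned without scaling for Ctss (-0.95), Tpp1 (-0.27), Hexa (-0.47), Gusb (-0.47), Neu1 (-0.21), Psap (-0.74), Tfeb (-0.12), Ulk1 (-0.055), Atg7 (-0.73) and Gabarap (-0.78). Near 0, Ctss also turned with normexp and the 75th percentile shift (-0.39), quantile normalization (-0.025), the median shift (-0.066), the deposited values (-0.058), and without control replicate 2 (-0.0090) or AP replicate 2; with 1 array left out it ranged from -0.026 to 0.032. Atp6v1h turned under quantile normalization (0.073), with the deposited values (0.068), with first scans alone (0.0003), and without control replicate 1 (0.017) or AP replicate 2, ranging from -0.044 to 0.031 with 1 array left out. Psap (-0.045) and Gabarap (-0.12) turned with normexp and the 75th percentile shift, and Gabarap without control replicate 1, with a range of -0.043 to 0.39 over the arrays left out.

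Replicate numbers did not pair the arrays: deviations of the arrays numbered 1 correlated with r = -0.21 across 13149 probes. With the replicate block 14 members were lower and 1 higher, and with the crossed pairing, tried after seeing the data, 17 and 4. Over 701 gene results in the other settings, 542 kept direction and side of the threshold, 73 lost and 62 gained a call, and 24 turned.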
